A study of Mus musculus with 2 samples.

Results

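The genes of the AP-1 transcription factor family were examined for open chromatin in cells of the mouse femoral growth plates. Per the study, the dissected tissue held the chondrocyte zones, the perichondrium and further cartilage. Its peaks cannot be assigned to chondrocytes alone. The 10 members were Fos, Fosb, Fosl1, Fosl2, Jun, Junb, Jund, Atf3, Batf and Jdp2, and every peak inside one of these genes or within 100 kb of it was taken. Overlapping peaks of the proximal and distal femur lists were merged into regions, so that a region held a peak of both ends (shared) or of 1 end only (proximal only or distal only). This gave 97 regions of 32388 in all (0.299%), built from 87 of 28257 proximal peaks and 92 of 27958 distal peaks.

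ATAC-seq, in which a transposase inserts adapters into accessible DNA, had been carried out on the proximal and distal cartilaginous ends of the femur of E15.5 embryos from matings of FVB mice (strain FVBNJ). Cartilage of both femora was pooled over a litter of 8 animals on average, digested with 1% Collagenase II for 2 h at 37 °C, and used at 50000 cells per reaction. Each end had 2 biological replicates, which the authors had combined into 1 list of reproducible peaks per end, with positions and no height or score. There is therefore no replicate spread for any value below, no test was possible between the ends, and a region absent from one list may still be accessible there below the calling threshold. The intervals given are exact (Clopper-Pearson) 95% intervals, which cover counting error only.

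AP-1 factors bind DNA as dimers through a basic leucine zipper (bZIP). Fos proteins (Fos, Fosb, Fosl1, Fosl2) pair with Jun proteins (Jun, Junb, Jund), Jun proteins also pair with themselves, and Atf3, Batf and Jdp2 join as further partners that often act as repressors. These dimers recognise the TPA response element (TRE) and, depending on the partners, the related cAMP response element (CRE). Several members are immediate early genes, which cells switch on within minutes of growth factor, stress or mechanical stimulation, and the family has known roles in cartilage and bone, where Fos is needed for osteoclast formation and Fosl2 and Junb for normal growth of the skeleton. The cells of both ends had been digested for 2 h at 37 °C before the assay. Any effect of the digestion on accessibility at these genes cannot be told apart from their state in the embryo.

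A shared region lay at a promoter of 9 of the 10 members, against 55% of the 20807 protein-coding genes on autosomes. A promoter region here has its nearest edge within 1 kb of the start of any annotated transcript of the gene. The exception was Batf. Marker genes of cell types were read with the same measure. Of 6 chondrocyte genes, 4 (Col2a1, Acan, Sox9 and Col9a1) had a shared promoter region, Comp had one in 1 end and Matn1 had none. With so few genes, and 55% over all coding genes, this does not settle the cell type. Shared promoter regions lay at 0 of 4 osteoblast genes, 0 of 4 muscle genes, 0 of 3 blood genes, 1 of 4 endothelial genes (Kdr) and 1 of 4 epithelial genes (Epcam). Gata1, the other blood gene planned, is not on an autosome and was not read.

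**Figure D1:**
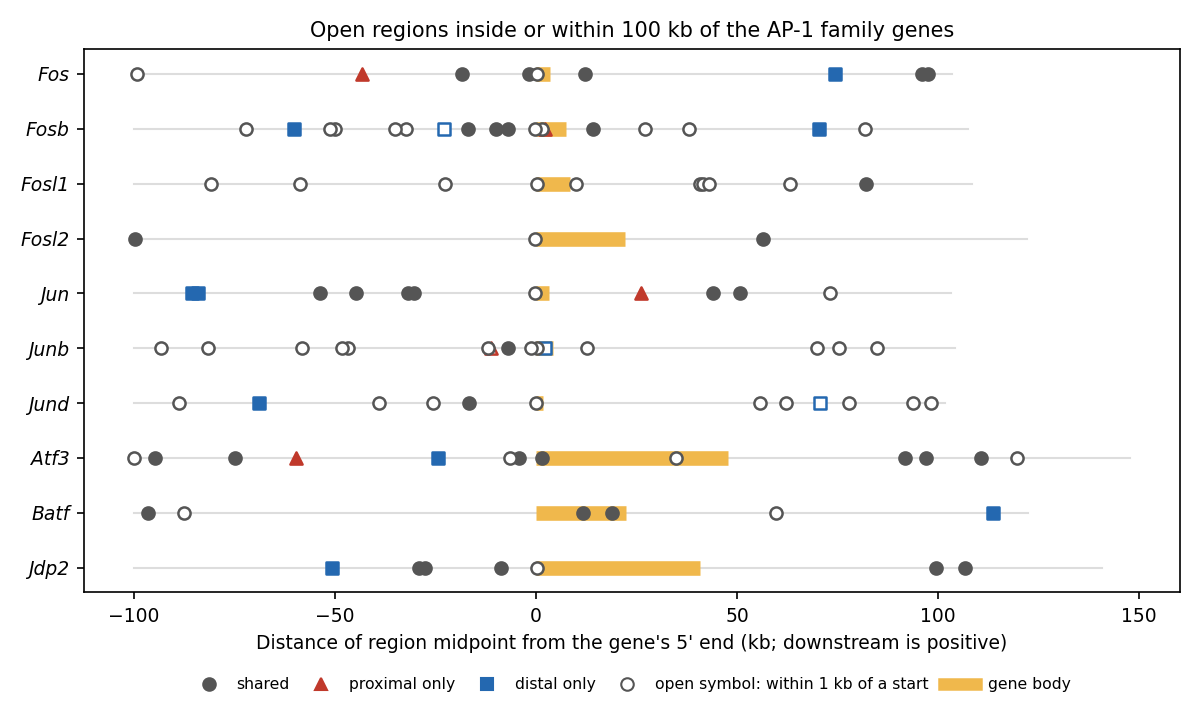
Each row is an AP-1 family gene, the horizontal axis is the distance in kb of a region's midpoint from the gene's 5′ end, and symbols mark shared, proximal-only and distal-only regions, open where a transcription start lies within 1 kb. Open circles sit at the 5′ end of each gene other than Atf3, where the circle of its own start lies 34.9 kb inside the gene, and Batf, where there is none.

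The reference sequences of 5 member promoters are printed first, because they show the range that the regions covered: the immediate early genes Fos, Jun and Junb with an open start, Atf3 with an open internal start, and Batf with no region. They come from RefSeq (GRCm38.p6, the same assembly as mm10) and run from 250 bases before the RefSeq start through the first 30 bases from it, 5′ to 3′ on the strand of the gene. Capitals mark a TATAAA box in Fos and Junb and, in Jun, the TRE-like element known from this promoter; Atf3 and Batf held none of the motifs searched in this window.
Fos, chr12:85473640-85473919, plus strand: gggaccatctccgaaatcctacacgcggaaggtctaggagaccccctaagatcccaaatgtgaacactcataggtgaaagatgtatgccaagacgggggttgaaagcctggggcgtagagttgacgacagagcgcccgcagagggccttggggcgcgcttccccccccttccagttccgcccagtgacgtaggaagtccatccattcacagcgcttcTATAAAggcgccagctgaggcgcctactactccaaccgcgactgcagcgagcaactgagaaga
Jun, chr4:95052193-95052472, minus strand: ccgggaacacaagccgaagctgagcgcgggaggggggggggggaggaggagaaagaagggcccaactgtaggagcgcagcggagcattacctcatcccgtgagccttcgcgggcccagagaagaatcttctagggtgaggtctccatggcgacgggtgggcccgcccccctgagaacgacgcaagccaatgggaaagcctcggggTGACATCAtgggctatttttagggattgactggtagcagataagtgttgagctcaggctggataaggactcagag
Junb, chr8:84978719-84978998, minus strand: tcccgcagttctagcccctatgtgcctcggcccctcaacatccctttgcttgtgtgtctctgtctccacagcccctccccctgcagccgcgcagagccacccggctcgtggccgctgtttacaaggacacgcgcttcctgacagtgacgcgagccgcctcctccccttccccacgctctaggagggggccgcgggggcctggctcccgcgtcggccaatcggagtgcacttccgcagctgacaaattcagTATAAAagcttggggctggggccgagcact
Atf3, chr1:191183304-191183583, minus strand: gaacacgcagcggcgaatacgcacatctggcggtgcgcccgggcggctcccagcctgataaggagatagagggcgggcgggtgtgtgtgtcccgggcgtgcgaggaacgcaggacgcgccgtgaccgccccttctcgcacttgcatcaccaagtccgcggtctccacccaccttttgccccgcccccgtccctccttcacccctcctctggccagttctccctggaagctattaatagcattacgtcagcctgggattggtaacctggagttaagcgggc
Batf, chr12:85686470-85686749, plus strand: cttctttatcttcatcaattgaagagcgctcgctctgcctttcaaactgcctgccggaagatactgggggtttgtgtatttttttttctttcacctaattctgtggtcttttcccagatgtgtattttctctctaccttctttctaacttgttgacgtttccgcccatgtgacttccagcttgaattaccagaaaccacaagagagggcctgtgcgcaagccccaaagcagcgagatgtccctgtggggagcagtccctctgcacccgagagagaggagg

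Among the Fos subfamily, Fos (c-Fos, the prototype immediate early member, ENSMUSG00000021250.13) lay on chromosome 12 with 9 regions, of which 7 were shared, 1 was proximal only and 1 distal only. Its promoter region at chr12:85473383-85474682 was shared and spanned the start and part of the gene body, with a peak of 1210 bp in the proximal list and 1286 bp in the distal list. It was wider than 92.7% of all regions. A second, narrow shared region lay 1.6 kb upstream of the start and another lay 12.2 kb downstream of it, past the end of the gene. The region 43.3 kb upstream, in an intron of the noncoding gene Gm40477, was called in the proximal list only, and the nearest distal peak was 24.0 kb away.

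Fosb (FosB, ENSMUSG00000003545.3, chromosome 7) is an immediate early gene like Fos, and it had 18 regions, the most of any member within 100 kb, of which 14 were shared, 1 was proximal only and 3 were distal only. Both of its promoter regions were shared. The upstream one, at chr7:19309913-19310575, covered 3 of its 4 annotated starts, and the second, at chr7:19308110-19308889, lay 1.6 kb into the gene and was 404 bp wide in the proximal list and 778 bp in the distal list. A proximal-only region followed inside the gene, 2.3 kb from its 5′ end, and only 95 bp separated it from the nearest distal peak. The 3 distal-only regions were in an exon of Ppp1r13l 60.1 kb upstream, near the start of the noncoding gene Gm44698 23.0 kb upstream, and in an intron of Opa3 70.4 kb downstream. The last of these was the narrowest member region, at 310 bp.

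Fosl1 (Fra-1, ENSMUSG00000024912.6, chromosome 19), a Fos relative without the long activation domain of Fos, had 10 regions and all of them were shared. The promoter region at chr19:5447430-5448061 covered the 3 annotated starts and was 621 bp wide in the proximal list and 614 bp in the distal list. Its neighbourhood is dense in genes, with 15 other protein-coding genes within 100 kb, and 1 of the 10 regions was away from any start.

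Fosl2 (Fra-2, ENSMUSG00000029135.10, chromosome 5), a member with a known role in cartilage growth, had 3 regions, the fewest of the family, and all were shared. The promoter region at chr5:32135016-32136154 covered the upstream start and came within 19 bp of a second, while the remaining annotated start lay 10367 bp from the nearest region. The other regions lay 56.5 kb downstream between genes and 99.8 kb upstream in an intron of Babam2, a gene of the BRCA1 complex.

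Of the Jun subfamily, Jun (c-Jun, the main dimer partner of Fos proteins, ENSMUSG00000052684.4, chromosome 4) had 11 regions, of which 8 were shared, 1 was proximal only and 2 were distal only. Its shared promoter region at chr4:95051392-95053536 was the widest of all member regions, at 2145 bp in the proximal list and 2049 bp in the distal list, and wider than 99.8% of all regions. It also lay within 1 kb of a start of the antisense gene Junos, whose accessibility cannot be told apart from that of Jun. The distal-only regions lay close to each other, 84.1 kb and 85.6 kb upstream in an intron of Junos, with the nearest proximal peaks 22.1 kb and 20.4 kb away. The proximal-only region was 26.0 kb downstream in an intron of Gm12694.

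Junb (ENSMUSG00000052837.6, chromosome 8), a Jun protein that can restrain the activity of Jun and is needed for skeletal growth, had 15 regions, of which 13 were shared. The region over its main start, chr8:84978154-84979000, was shared, as was one 1.3 kb upstream at chr8:84979643-84980375. Another promoter region, at chr8:84976123-84976826, covered an annotated internal start and was the only member promoter region called in 1 end: it was 704 bp wide in the distal list, and the nearest proximal peak lay 1328 bp away. A proximal-only region of 314 bp at the neighbouring gene Hook2 lay 126 bp from the nearest distal peak.

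Jund (ENSMUSG00000071076.6, chromosome 8), the Jun protein that most cells express without stimulation, had 12 regions, 10 of them shared and 2 distal only. Its promoter region at chr8:70698327-70699478 was shared and 1055 bp and 1152 bp wide in the proximal and distal lists. One distal-only region, 1002 bp wide, lay in an exon of Gdf15, a stress-induced growth factor gene, 68.9 kb upstream, and the other, 314 bp wide, lay near a start of Pik3r2, 70.6 kb downstream.

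Atf3 (ENSMUSG00000026628.13, chromosome 1), a stress-induced bZIP factor, had 13 regions, of which 11 were shared, 1 was proximal only and 1 distal only. Its 3 annotated starts were not alike. The shared region at chr1:191182378-191183896, with peaks of 1383 bp and 1519 bp, covered the 2 downstream starts, whereas the upstream start at position 191218039 lay 1195 bp from the nearest region, just outside the promoter distance. That nearest region was shared too, in the first part of the gene. Distances given for Atf3 count from the upstream start, so the distal-only region lay 24.4 kb and the proximal-only region 59.8 kb upstream of it.

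Jdp2 (a bZIP protein that represses AP-1 targets, ENSMUSG00000034271.16) and Batf (a dimer partner of Jun proteins best known from lymphocytes, ENSMUSG00000034266.6) lie beside Fos on chromosome 12, with gaps of 121.8 kb between Fos and Jdp2 and 46.8 kb between Jdp2 and Batf. The 7 regions that fell within 100 kb of more than 1 member were all here, 3 between Fos and Jdp2 and 4 counted for both Jdp2 and Batf. Jdp2 had 7 regions, 6 of them shared, and its promoter region at chr12:85598808-85599627 was 795 bp wide in the proximal list and 768 bp in the distal list. Batf had 6 regions, 5 of them shared, but its annotated starts lay 11413 bp and 8790 bp from the nearest region. Both regions inside Batf were shared and intronic, 11.7 kb and 19.0 kb from its 5′ end. Distal-only regions lay 50.7 kb upstream of Jdp2, which also counted for Fos, and 113.6 kb from the 5′ end of Batf, in an intron of Flvcr2.

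The number of regions per member ranged from 3 to 18 with a median of 10.5, against a median of 5 and quartiles of 3 and 8 over all autosomal protein-coding genes. Fosb had more regions than 99.4% of these genes, Junb than 98.2%, Atf3 than 96.1%, Jund than 94.1% and Jun than 91.2%. Fosl2, at the other end, had more than 22.2%. The order at the top depended on what was counted: with narrow peaks left out Junb had 11 regions and Fosb 10, and with only regions nearest to the member's own start Jun had 8 and Fosb 6. The members also differed in gene density: 16 other protein-coding genes lay within 100 kb of Junb, 11 each of Fosb and Jund and 15 of Fosl1, but 1 of Jun and 2 of Atf3 (median over members 2, over all coding genes 4). The part of gene density in the counts of regions was not tested.

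**Figure D2:**
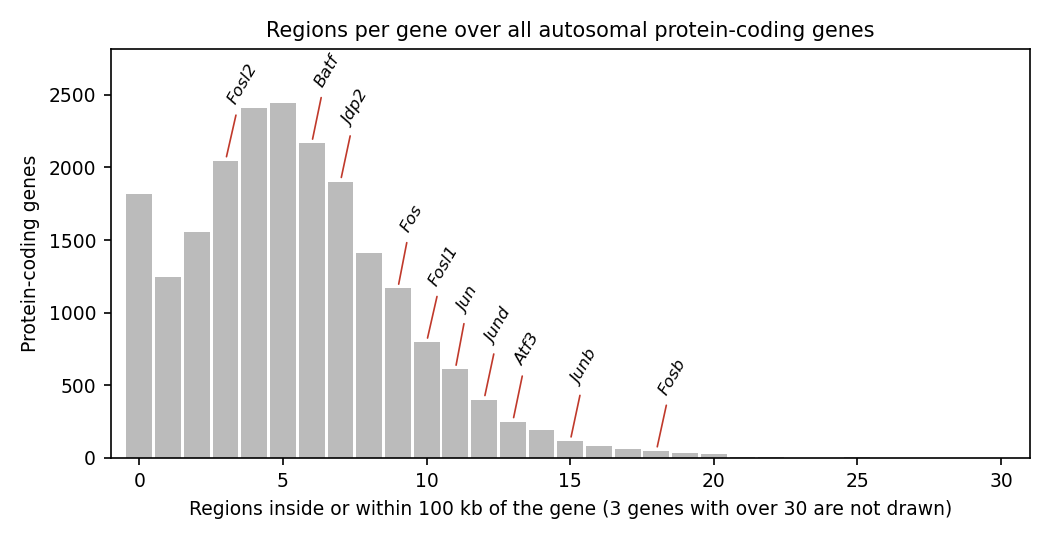
Bars give the number of autosomal protein-coding genes (vertical axis) with each number of regions inside or within 100 kb (horizontal axis), and lines mark the AP-1 family genes. Fosl2 lies at 3 regions, below the median of 5, and Fosb at 18.

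Counting only regions with no annotated start within 1 kb changed which members stood high. Jun and Atf3 had 9 such regions each, more than 98.2% of genes, Fos and Fosb had 7 each, more than 95.4%, and Jdp2 had 6, more than 92.6%. Fosl1 and Junb had 1 each, more than 27.3%, since 8 of the 10 regions at Fosl1 and 11 of the 15 at Junb lay at starts of other protein-coding genes, and 1 and 3 at their own. The median was 5 over the members and 1 over all coding genes. Of the 97 regions, 12 were promoter regions of a member, 40 lay at promoters of other protein-coding genes, 3 at noncoding starts and 42 away from any start. A member's start was the nearest protein-coding start for 37 of them. At Atf3 this held for 5 of its 13 regions, and Batf3 or Nenf was nearest for the others. At Fos its own start was the nearest for 5 of 9. The counts away from starts include regions nearest to another gene, and regions between Fos and Jdp2 counted for both.

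**Figure D3:**
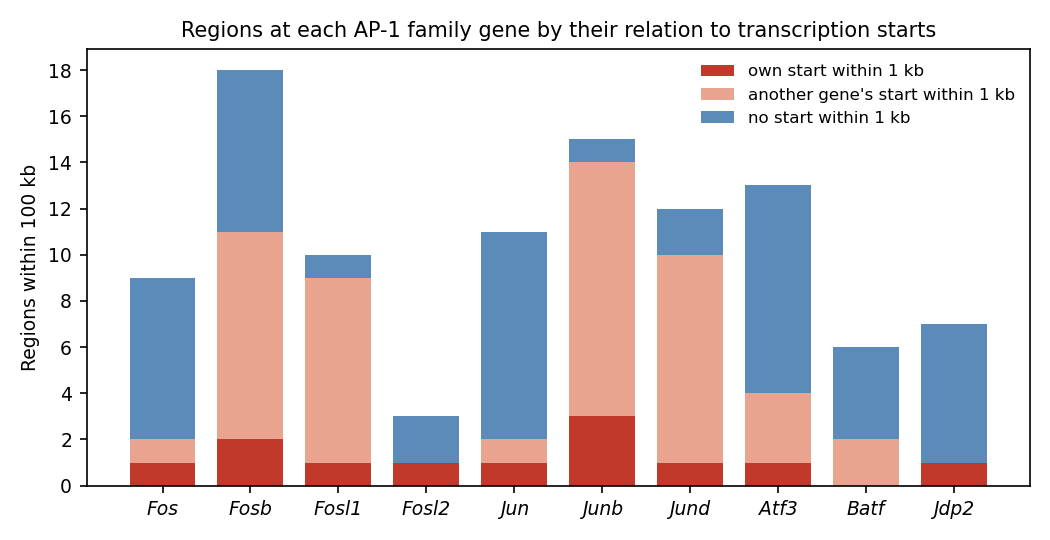
Stacked bars count the regions within 100 kb of each AP-1 family gene (vertical axis, number of regions) by the gene's own starts, other genes' starts and no start within 1 kb. Regions away from starts make up 9 of 11 at Jun and 9 of 13 at Atf3, but 1 of 15 at Junb.

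Most member regions were called in both ends. Of the 97 regions, 81 were shared (83.5%, against 73% of all regions) and 16 were called in 1 end only (16.5%, interval 9.73 to 25.4%), while 27% of all regions were called in 1 end. With peaks below the median width of their list left out, the single-end share was 26.7% for the member regions and 28.7% for all regions. The 5 proximal-only regions were 5.15% of the member regions, against 14.1% of all regions, and the 11 distal-only regions were 11.3%, against 12.9%. Distal-only regions were thus 68.8% of the single-end member regions (interval 41.3 to 89%) and 47.9% over the whole data set, a value inside the interval. Within 50 kb of the genes the order turned, with 4 proximal-only and 3 distal-only regions. It did not turn within 200 kb (9 proximal only, 14 distal only), with narrow peaks left out (3 and 13) or by nearest start (3 and 5).

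Regions at starts and away from starts were then counted apart, since 56.7% of member regions and 42.5% of all regions lay within 1 kb of a start. Of the 55 member regions at any start, 4 were called in 1 end (7.27%, interval 2.02 to 17.6%), against 12.2% of all promoter regions. Of the 42 away from starts, 12 were called in 1 end (28.6%, interval 15.7 to 44.6%), against 38% of all such regions. Both background values lay inside the intervals, so at these counts the single-end share of the member regions could not be told apart from that of all regions of the same kind.

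The 16 single-end regions were spread over 8 of the members, with none at Fosl1 or Fosl2. The proximal-only regions inside Fosb and at Hook2 were within 1 kb of a distal peak (95 bp and 126 bp), which made 2 of the 16 (12.5%) against 4.08% of all single-end regions, whereas the remaining ones lay between 1328 bp (Junb) and 23973 bp (Fos) from the other list. A count of 2 regions is too small to set this share apart from that of all regions. The median distance was 15.6 kb, against 22.2 kb for all single-end regions. Single-end regions were narrow, with a median width of 567 bp for proximal-only and 537 bp for distal-only members, against 827 bp for shared ones, and the same order held over all regions (510, 497 and 812 bp).

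Width in the 2 lists was the other measure that could be compared between ends. In the 80 shared member regions with 1 peak from each list, the median width was 731 bp in the proximal list and 780 bp in the distal list, and the peak was wider in the distal list in 44 and in the proximal list in 36. The proximal peak was thus the wider in 45% of member regions and in 57.1% of all 23450 such regions. This difference was not tested. A difference of over 1.5 times was found in 7 member regions (8.75%, against 6.2% of all). Of these, 5 were wider in the distal list: the internal promoter region of Fosb, the Rtn2 promoter and a region 16.9 kb upstream near Fosb, 1 region 44.0 kb downstream of Jun and 1 region 29.2 kb upstream of Jdp2. The other 2 were wider in the proximal list, at the Sart1 promoter near Fosl1 (1067 and 489 bp) and 74.8 kb upstream of Atf3 (1286 and 808 bp). Peak width depends on depth and on the caller, which were not analysed here.

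**Figure D4:**
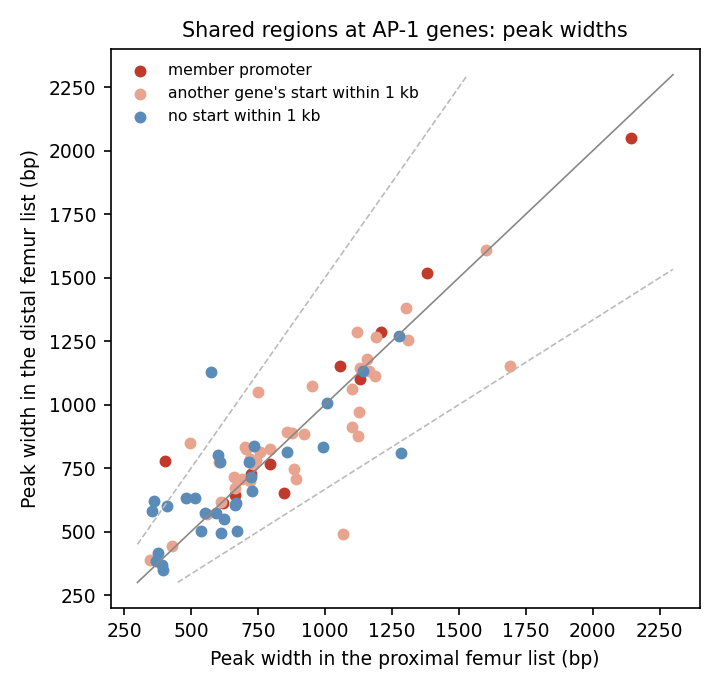
Each point is a shared member region with 1 peak per list, with the proximal peak width (bp) on the horizontal and the distal width (bp) on the vertical axis; the solid line marks equal widths and the dashed lines a difference of 1.5 times. Most points follow the solid line, the Jun promoter lies farthest out at 2145 and 2049 bp, and 7 points lie outside the dashed lines.

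The TRE (TGACTCA, searched on both strands, read as TGAGTCA on the other) was looked for in the 200 bp around each region's midpoint. It was present in 12 of the 97 member regions (12.4%, interval 6.56 to 20.6%), against 19.9% of all regions. In regions away from starts it was present in 10 of 42 (23.8%, interval 12.1 to 39.5%), against 30.4% of all such regions, and in those at starts in 2 of 55 (3.64%), against 5.6%. In windows of the same length 2 kb to either side of the 42 regions it was present in 2 of 84 (2.38%, against 3.58% over all regions away from starts). For regions away from starts whose nearest protein-coding start was a member's, the TRE share in the central 200 bp was 16.7%, with no interval given. No promoter region of a member held the TRE in the central 200 bp. The TRE was less frequent at starts than away from them over all regions as well. The value over all regions, 19.9%, lay inside the interval of the member regions. The part of the share of promoters in the TRE share was not tested.

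**Figure D5:**
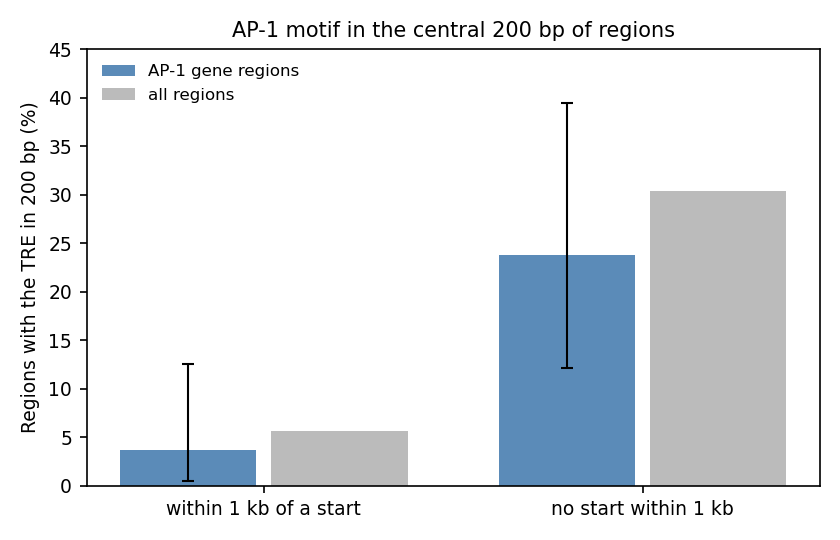
Bars give the percentage of regions with the TRE in the central 200 bp, for AP-1 gene regions and for all regions, split by whether a transcription start lies within 1 kb; lines are exact 95% intervals (counting error only). The values for all regions, 5.6% and 30.4%, lie within the intervals of the AP-1 gene regions, 3.64% and 23.8%.

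In whole regions, 39 TREs fell in 31 member regions, and 5 regions held 2 or more (8.27% of all regions did). The region with the most was a shared, intergenic one 7.0 kb upstream of Junb, chr8:84985179-84986225, with 4 TREs, of which 3 were in the central 200 bp, at spacings of 30 and 64 bp. Over the whole data set, 0.284% of regions (92) held 4 or more, and 0.296% (96) held 3 or more in 200 bp. Near Jun, a shared region 50.7 kb downstream held 2 TREs 28 bp apart, and the region 99.8 kb upstream of Fosl2 held 3, of which 2 were in the centre, 43 bp apart. None of these Junb, Jun and Fosl2 regions had a member's start as the nearest protein-coding start. The nearest was that of Hook2, Mysm1 and Babam2, respectively. The remaining regions with 2 were near Fosb, 6.8 kb upstream and at the Ercc1 promoter. The central 200 bp of the Junb, Jun and Fosl2 regions are printed because they hold several TREs each; capitals mark the TRE on either strand, and the sequence is the reference assembly mm10.
Junb, 7.0 kb upstream, chr8:84985602-84985801, plus strand: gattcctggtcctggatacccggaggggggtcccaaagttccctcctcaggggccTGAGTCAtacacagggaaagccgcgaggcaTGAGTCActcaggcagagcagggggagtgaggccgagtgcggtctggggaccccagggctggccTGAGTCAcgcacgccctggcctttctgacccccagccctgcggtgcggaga
Jun, 50.7 kb downstream, chr4:95001437-95001636, plus strand: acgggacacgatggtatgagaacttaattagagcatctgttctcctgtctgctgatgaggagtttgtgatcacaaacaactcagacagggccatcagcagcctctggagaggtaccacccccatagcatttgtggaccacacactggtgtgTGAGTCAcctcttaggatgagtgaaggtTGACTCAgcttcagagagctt
Fosl2, 99.8 kb upstream, chr5:32035863-32036062, plus strand: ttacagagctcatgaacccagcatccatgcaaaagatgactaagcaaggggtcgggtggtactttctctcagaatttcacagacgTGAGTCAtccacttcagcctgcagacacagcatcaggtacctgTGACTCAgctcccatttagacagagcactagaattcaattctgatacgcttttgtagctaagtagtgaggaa

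The other 7 member regions away from starts with a TRE in their centre held 1 each. They are shown as 21 bases of the strand that reads TGACTCA, in capitals, so that the flanks on either side of the same 7 letters can be compared between shared and distal-only regions. Each is headed by the member within 100 kb. The nearest protein-coding start was another gene's for the Fosl2 region (Plb1) and for the Jund regions 16.6 kb (Lsm4) and 68.9 kb (Gdf15) upstream.
Fosl2, 56.5 kb downstream, shared: gagcctcTGACTCAtctcgat
Jun, 31.9 kb upstream, shared: tctacggTGACTCAgaagaaa
Jun, 84.1 kb upstream, distal only: tgatgtgTGACTCAgactttt
Jund, 16.6 kb upstream, shared: caggcggTGACTCAcgccctc
Jund, 68.9 kb upstream, distal only: gagacccTGACTCAgcgacgc
Atf3, 4.2 kb upstream, shared: acatgggTGACTCActtggtg
Jdp2, 29.2 kb upstream, shared: agaacgcTGACTCAgccacct
Of the 12 regions with a central TRE, 9 were shared, 3 were distal only and none was proximal only. With 11 distal-only and 5 proximal-only regions in all, these counts are too small to set the ends apart.

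The promoter sequences of the members were searched for the same motifs. RefSeq promoter windows, from 250 bases before to 50 after the start, were matched for 9 of the 10 members (all but Fosl1) and compared with those of 20085 protein-coding promoters. No member held the TRE (4.7% of all promoters did), the CRE TGACGTCA (2.3%) or the CArG box, the site of serum response factor (1.43%). TATAAA was present in Fos, 33 bases before the start, and in Junb, 30 bases before the GENCODE start (12.7% of all promoters). In Jun the letters TGACATCA, which were added after the data had been seen because they are the TRE-like element known from this promoter, began 45 bases before the start (3.01% of all promoters). The TRE and CRE were searched as exact letters, and TGACATCA was the only variant searched. Their absence from a window therefore does not exclude a related site there, at Fos, Atf3 or any other member. The RefSeq windows of Fosl2, Jund and Batf, and 1 of the 3 of Jdp2, were not overlapped by any region, and the RefSeq start of Jund lay 1210 bases upstream of the GENCODE start that its region covered. Whole promoter regions, which are wider than these windows, did hold such letters: the CRE was present in that of Jund, and 1 TRE each in those of Fosl1, Fosl2 and Atf3, outside the central 200 bp. The share of all whole promoter regions with these motifs is not given, so these counts are not a trait of the members.

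In a wider window, from 1000 bases before to 100 after the start, the CArG box was found in Fos (309 bases before the start) and Fosb (272 bases before it), and in no other member (5.82% of all promoters). Both fell inside shared promoter regions. The TRE was found in Fosl2 (16.2% of all promoters), and a CRE lay 712 bases before the start of Batf, outside any region (3.15%). The CArG boxes, in capitals with 7 bases on each side, are printed because this element is known to drive the response of Fos to growth factors; the coordinates are those of the capitals.
Fos, chr12:85473581-85473590, plus strand: aggatgtCCATATTAGGacatctg
Fosb, chr7:19310308-19310317, minus strand: ccgagctCCTTATATGGctaattg

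The promoter regions of the members were rich in G and C, with a median of 64.3% (range 60.7 to 74.3%), against 60.2% over all promoter regions, and were 834 bp wide in the median, against 942 bp. Jdp2 had the highest G and C content and Jun the lowest. Member regions away from starts had a median of 53.3%, against 47.2% over all such regions.

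Other genes of the AP-1 system were read in the same way. Of 18 genes for further bZIP partners, 16 had a shared promoter region, with none at Atf1 and Cebpb, and the median was 7 regions per gene. Bach2 had the most, 15, and Bach1 and Batf2 had 11 each, as did 1 further gene of the list. A list of 12 genes for signalling to AP-1 held kinases, factors at the Fos promoter and Egr1, itself an immediate early gene. Of these, 9 had a shared promoter region, 2 had one in 1 end and 1 had none, with a median of 6.5 regions. Egr1 had 11, the kinase genes Map2k2 and Mapk3 10 and 9. Of 10 genes known as AP-1 targets in skeletal cells, 3 had a shared promoter region, 4 had one in 1 end and 3 had none, with a median of 5.5. The urokinase receptor gene Plaur had the most, 16, and Mmp14 and Spp1, which act on or in the bone matrix, had 12 each. The 3 without a promoter region were the collagenase gene Mmp13, Ccnd1 and Col10a1. Over all autosomal protein-coding genes, 55% had a shared promoter region and the median was 5 regions per gene. No difference between these lists, or from all genes, was tested.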

How the data were processed

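The data were ATAC-seq peak positions from the proximal and the distal femoral growth plate, 1 list per end. The values are of no unit other than positions: the lists deposited by the authors give chromosome, start and end. Per the labels and the methods of the study, reads were mapped by the authors with Bowtie2 2.2.8 (mm10), removed duplicates, called peaks with MACS2 2.1.1 and kept peaks reproducible between 2 biological replicates at an IDR (irreproducible discovery rate) under 0.05. The versions are those in the labels, and the methods of the study name another MACS2 version. The reads, depths and the separate replicates were not analysed here, and sequence is that of the reference assembly and not of the FVB strain.

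Peaks were read as counted from 0 at the start and merged across lists where they overlapped by 1 bp or more. Genes and starts were from GENCODE mouse release 21. The background for genes is the protein-coding genes on the 19 autosomes. Motifs were searched on both strands in 200 bp around region midpoints, in whole regions, and in RefSeq promoters (GRCm38.p6). Python 3.11.15 with pysam 0.24.0, SciPy 1.17.1, NumPy 2.4.6 and Matplotlib 3.10.9 was used, and the steps were tested on simulated data. All 10 members are named. Other genes are named from fixed lists (those with the most regions, at most 3 a list, those without a promoter region, and some cell type markers). They are also named where they own or hold a member region. Regions were described where they were promoter regions, called in 1 end, the widest or narrowest, or held several TREs. Of the genes with counts most like those of Fosb, 14 tied and none is named. At the distance limit, the regions nearest to it lay 99533 bp (Fosl2) and 99510 bp (Atf3) inside and 101343 bp (Fosl1) and 104010 bp (Jund) outside. The family, its members and the gene lists were chosen with earlier results of these data known, among them the frequency of the AP-1 motif in these peaks, so the TRE values are a description. The alternatives tried were the distance, the promoter and overlap definitions, narrow peaks, the assignment to the nearest gene and the motif window. A planned comparison of the member proteins was not run.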

Additional observations from a re-analysis of the deposited data

How the results depend on the processing

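Each count was recomputed under the alternatives, with 53 values for the main results, of which 23 stayed within 1.5 times the main count or within the interval, and 30 moved. Raw counts of peaks and regions change by construction with the distance and when peaks or regions are dropped. The number of values that moved, here and for single members, is therefore not a measure of how stable the results are. Within 50 kb, the members had 56 distal peaks and 60 regions, 53 of them shared, 4 proximal only and 3 distal only, with a median of 5.5 per member; within 200 kb they had 140 proximal and 144 distal peaks and 153 regions, 130 shared and 9 proximal only, with a median of 16. With narrower peaks left out (those below the median width within each list), there were 47 proximal and 57 distal peaks and 60 regions, 44 shared and 3 proximal only, a median of 6, and a single-end share of 26.7% (28.7% of all regions). With only regions whose nearest protein-coding start was a member's, there were 32 proximal and 34 distal peaks and 37 regions, 29 shared, 3 proximal only and 5 distal only, with a median of 4. The median over all protein-coding genes (5) is for the main setting. None is given for the alternatives, so the medians per member under them cannot be set against all genes. With whole regions searched, the TRE share was 32% (33.4% of all regions). In the promoter window of 1000 bases before to 100 after the start, 1 member held the TRE, 1 the CRE and 2 the CArG box, in place of 0 each; with TGACATCA counted as well, an alternative chosen after seeing the data, 1 member held it in the shorter window.

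Of 40 values for the regions at single members, 30 moved and 10 did not: Fosb had 13 regions within 50 kb and 29 within 200 kb, the most under both, but not with narrow peaks left out (10, Junb 11) or by nearest start (6, Jun 8), and by nearest start Fosl1, Fosl2 and Jund had 1 each. The count of 9 members with a shared promoter region was the same under the other promoter definitions, and was 7 with wide peaks only. The share over all protein-coding genes (55%) is for the main definition. None is given for the alternatives, so the counts under them cannot be set against all genes. A reciprocal overlap of 50% gave a single-end share of 17.5% (28% of all regions). No paired analysis was possible because each end has 1 list that combines its replicates. The lists hold no depth, height or score, so how far a region absent from a list lay below the threshold was not analysed here.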
